A study of Mus musculus with 16 samples.

Results

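The oligodendrocyte and myelin genes of the amygdala were a list of 39 genes, read by symbol from an expression table of 17293 genes, and all 39 were in the table. They were sorted by the stage of the oligodendrocyte lineage that they mark. There were 2 precursor genes, 2 lineage transcription factors, 3 genes of newly formed oligodendrocytes and 32 genes of the myelin stage, and the myelin stage was divided by role into 20 genes of myelin structure, 4 regulators and receptors, and 8 genes of lipid handling, metabolism or secretion. The series was RNA-seq of the amygdala of C57BL/6 mice (the J substrain in the study's methods) at PN28, which is 28 days of age, with 4 mice in each of 4 groups, and the mice of a sex came from different litters. PS (prenatal stress) offspring were born to dams that met varying psychosocial stressors while pregnant, CTRL offspring to dams left undisturbed, and no allele or agent was named in the labels. In the study's design the sequenced mice were not cross-fostered, so PS mice were also reared by stressed dams. Stress before birth and rearing therefore cannot be told apart in any PS comparison below. The groups were PS males (libraries LM25 to LM28), CTRL males (LM17 to LM20), PS females (LM29 to LM32) and CTRL females (LM21 to LM24). Each library was a dissection of frozen tissue, so it held all the cells of the piece that was cut.

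Oligodendrocytes wrap axons with myelin, a compacted membrane rich in galactolipids that speeds conduction and shields the axon. They arise from dividing precursor cells that carry the PDGF receptor and the NG2 proteoglycan, pass through a short premyelinating stage, and then express the myelin genes together under factors such as MYRF, SOX10 and OLIG2. In rodents much of forebrain myelin is laid down in the weeks after birth, so an amygdala of this age holds precursors beside oligodendrocytes that are still adding myelin.

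Promoter sequences are shown for 4 myelin genes and for a precursor gene whose transcript did not vary with theirs in the values below. RefSeq promoter windows of 300 bases (250 before the start site and 50 from it on, build GRCm38.p6) were at hand for 28 of the 39 genes, with 36 windows in all. Capitals mark the letters CTGGCAC or CTGGTAC, read on either strand, which resemble the site bound by MYRF. Only 6 of the 28 genes with a window held these letters. The 4 myelin genes shown are among those 6, so they are not typical of the list. Of these, Mag (chr7:30914814-30915113, minus strand) encodes the adhesion protein that faces the axon and Mog (chr17:37023349-37023648, minus strand) an immunoglobulin-like protein of the outer myelin surface. Cnp (chr11:100574689-100574988, plus strand) encodes a phosphodiesterase that keeps cytoplasmic channels open, Opalin (chr19:41077064-41077363, minus strand) a sialoglycoprotein of the oligodendrocyte membrane, and Pdgfra (chr5:75152001-75152300, plus strand) the PDGF receptor alpha.
Mag: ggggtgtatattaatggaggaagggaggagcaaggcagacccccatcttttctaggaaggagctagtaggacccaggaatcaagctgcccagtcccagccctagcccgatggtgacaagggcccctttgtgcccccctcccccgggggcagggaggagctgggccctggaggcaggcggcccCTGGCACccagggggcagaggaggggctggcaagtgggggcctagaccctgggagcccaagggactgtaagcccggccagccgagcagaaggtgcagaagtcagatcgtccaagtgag
Mog: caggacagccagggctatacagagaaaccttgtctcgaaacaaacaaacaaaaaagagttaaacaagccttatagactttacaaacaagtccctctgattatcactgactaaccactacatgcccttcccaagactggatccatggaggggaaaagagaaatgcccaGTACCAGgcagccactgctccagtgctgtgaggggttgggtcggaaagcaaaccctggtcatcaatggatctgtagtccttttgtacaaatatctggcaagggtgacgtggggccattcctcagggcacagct
Cnp: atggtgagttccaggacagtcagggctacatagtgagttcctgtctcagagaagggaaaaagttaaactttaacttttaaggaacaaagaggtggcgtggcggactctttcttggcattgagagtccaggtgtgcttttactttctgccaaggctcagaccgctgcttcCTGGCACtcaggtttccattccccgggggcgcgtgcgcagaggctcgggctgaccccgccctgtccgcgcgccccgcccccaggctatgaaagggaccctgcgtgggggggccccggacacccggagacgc
Opalin: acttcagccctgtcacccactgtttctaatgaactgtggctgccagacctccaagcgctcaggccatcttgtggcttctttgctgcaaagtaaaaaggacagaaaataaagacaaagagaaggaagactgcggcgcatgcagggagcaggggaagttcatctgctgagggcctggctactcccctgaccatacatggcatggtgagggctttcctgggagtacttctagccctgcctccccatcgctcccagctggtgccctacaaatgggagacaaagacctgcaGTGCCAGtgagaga
Pdgfra: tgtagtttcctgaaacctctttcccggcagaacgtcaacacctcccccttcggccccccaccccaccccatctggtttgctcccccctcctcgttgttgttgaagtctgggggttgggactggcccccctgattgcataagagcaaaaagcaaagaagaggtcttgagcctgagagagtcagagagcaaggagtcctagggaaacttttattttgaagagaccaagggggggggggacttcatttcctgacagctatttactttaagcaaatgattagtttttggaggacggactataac

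Counted from the start site as base 0, the first base of the marked letters lay at -68 in Mag, -83 in Mog, -81 in Cnp and 36 in Opalin, and the Mog and Opalin matches were on the other strand. Mag has 3 windows, and 1 of them held the letters, which is the window shown. The printed Pdgfra window held 0 matches. The letters occurred in 7 of the 36 member windows (19.4%), in the genes Cnp, Hapln2, Lpar1, Mag, Mog and Opalin, against 7.10% of 32851 mouse promoter windows of the same length. The letters ACAAAG or ACAATG of SOX sites were in 44.4% of member windows and 28.6% of all windows, and the E-box CAGCTG was in 11.1% of member windows and 16.3% of all windows. Both were searched on both strands, and the MYRF letters overlapped neither of them in any member window. A match describes these letters only.

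The values were CPM of the deposited table, which the authors had already corrected for 2 factors of unwanted variation, and its totals lay between 39989993 and 44275406 per library. CPM was scaled once more with TMM factors between 0.950 and 1.05, and fold changes are on the scale of log2(CPM + 0.5). Groups were compared with limma over all 16 libraries with p-values adjusted over all genes tested, and a gene passed at an adjusted p under 0.05. All groups shared a single estimate of the spread of each gene. The SE and adjusted p of a male comparison therefore also carry the spread of the female libraries. PS males LM25 and LM28 were the highest male libraries in hippocampal markers and the lowest in central amygdala and intercalated cell markers. Medians over each list are on the log2 scale, relative to each gene's mean over the 16 libraries. For 8 hippocampal markers they were 0.48 in LM25 and 1.46 in LM28. The other 6 male libraries lay between -0.87 in CTRL male LM20 and 3.7e-05 in CTRL male LM17. For 9 central amygdala and intercalated cell markers the median was -0.51 in LM25 and -0.37 in LM28, against -0.10 or more in the other male libraries. Results are therefore also given without LM25 and LM28. Libraries farther from 0 than LM25 in hippocampal markers were kept, among them CTRL males LM18 (-0.80) and LM20, CTRL female LM22 (0.92) and PS female LM32 (-1.30).

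All 39 genes were detected in all 16 libraries, at levels that differed widely between genes. Per kilobase of exon, the highest mean levels were those of Car2 (27.2 CPM per kb), Qdpr (26.5), Mbp (18.1) and Olig1 (13.2), and the lowest those of Aspa (0.32) and Enpp6 (0.21). Mag and Mog lay at 3.17 and 2.81 CPM per kb, and Pdgfra at 6.84. Car2 encodes a carbonic anhydrase and Qdpr the enzyme that recycles tetrahydrobiopterin, and both are also expressed outside oligodendrocytes.

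The stages differed in how much they varied from library to library. The highest of the 16 libraries was 1.34 times the lowest for Pdgfra and 1.38 times for Cspg4, which encodes the NG2 proteoglycan. The same quotient was 2.40 for Olig1 and 2.11 for Olig2, the basic helix-loop-helix factors of the lineage, and 12.8 for Enpp6, a choline phosphodiesterase of newly formed oligodendrocytes. Over the 32 myelin stage genes it had a median of 5.74 (1.80 for Car2 to 12.5 for Ugt8a), against 1.42 over 14393 genes. The median SD within groups was 0.53 on the log2 scale over the myelin stage genes and 0.12 over all genes.

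**Figure D1:**
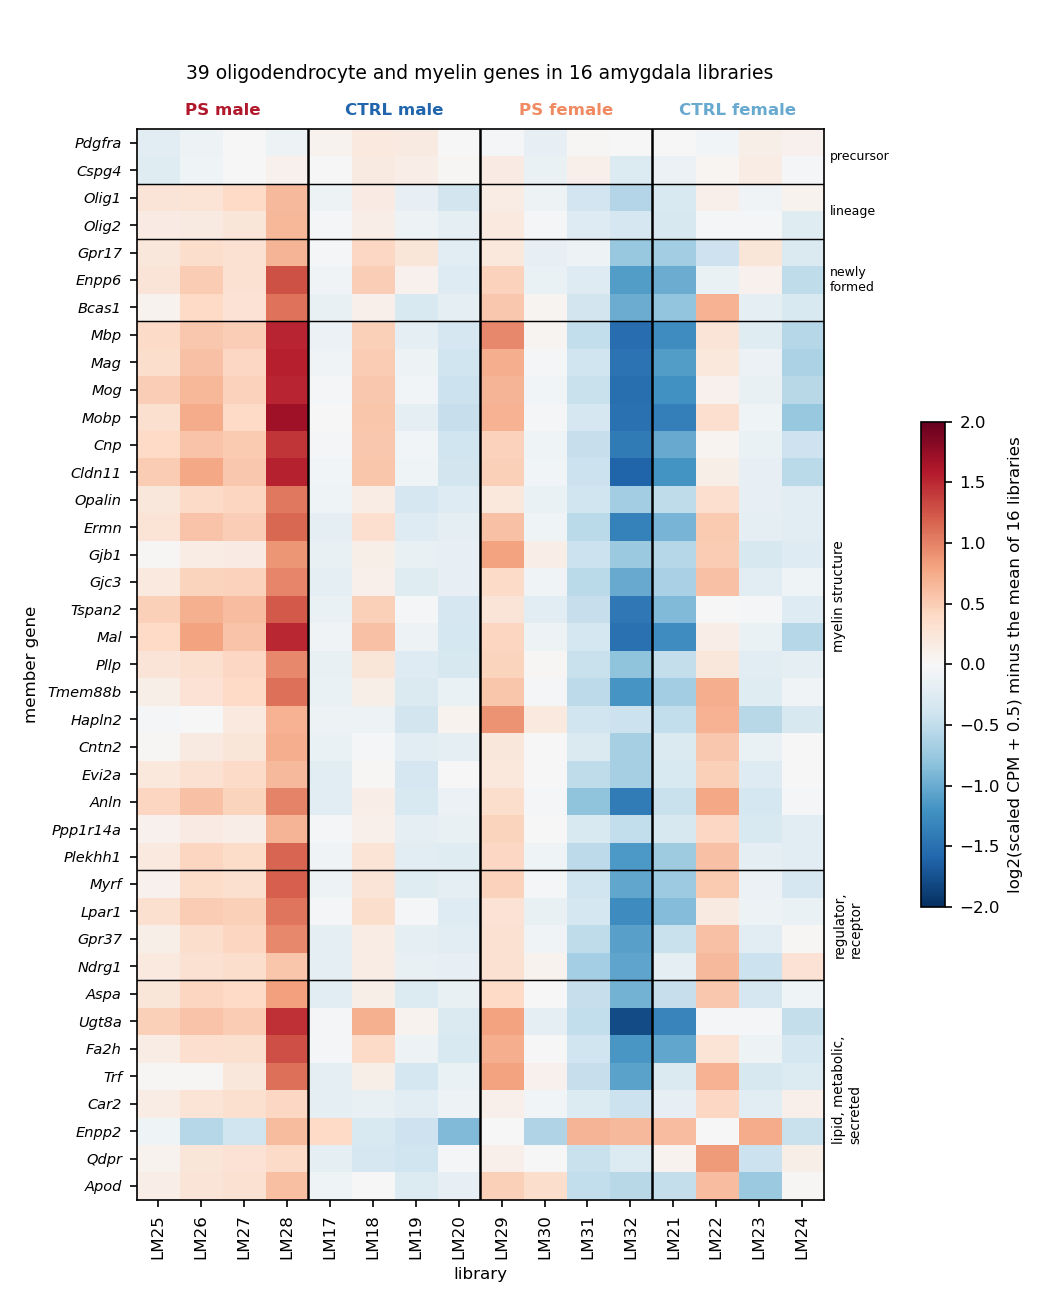
Log2 CPM of the 39 genes relative to each gene's mean over 16 libraries (color), with genes in rows by stage and libraries in columns by group. The 2 precursor rows at the top are nearly flat, while most myelin stage rows are highest in PS male LM28 and lowest in PS female LM32.

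The myelin stage genes moved as a block within groups. A single axis held 88.0% of their variance within groups, against 27.7% for the first axis over all genes. The first axis of the 7 members of earlier stages held a similar share, 85.8%, so a dominant axis was not particular to the myelin stage. On the myelin stage axis 31 of the 32 genes had the same sign, the exception being Enpp2. PS male LM28 had the highest value of all 16 libraries for 27 of the 32 genes, and PS female LM32 the lowest for 28. Within each group the same library led nearly all genes. LM28 was highest among PS males for 32 of 32, LM18 among CTRL males for 28, LM29 among PS females for 31 and LM22 among CTRL females for 30.

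Mbp, the protein that compacts the myelin membrane, shows the size of this axis. Its level was 175, 196, 189 and 387 CPM in PS males, against 124, 188, 118 and 106 CPM in CTRL males, with LM28 far above the other 3 PS males. In PS females it was 263, 140.3, 95.8 and 46.4 CPM, and in CTRL females 56.7, 161, 114 and 89.9 CPM, so that PS females reached both above the highest and below the lowest CTRL male. The quotient of Mbp over Mag stayed between 10.9 and 13.7 in all 16 libraries, while that of Mbp over Pdgfra ran between 0.68 in PS female LM32 and 6.10 in PS male LM28.

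PS males were compared with CTRL males to ask how the male amygdala differed after prenatal stress and rearing by the stressed dam. The myelin stage genes had higher means in PS males, but 0 of the 39 members passed the test (limma, smallest adjusted p = 0.0725, for Car2), and 12 of 39 (30.8%) had an unadjusted p under 0.05, close to the 25.7% of all genes tested. Of the 14309 genes tested, 492 passed (3.44%). With only the compared groups in the model 14 members passed, and with the removed directions left out 3 passed. The log2 fold change was above 0 for 37 of 39 members, with a median of 0.58 (range -0.21 to 0.83), while the median of all genes tested was 0.0073 and 51.8% of them were above 0. A difference in the number of cells of the lineage and one in RNA per cell cannot be told apart in these bulk samples, here or in any result below.

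In 14 of the 39 members every PS male library lay above every CTRL male library, a larger share than the 10.2% of all genes tested (1453 genes). The members vary together, so they do not count as independent genes. In 0 members every PS male library lay below, against 12.1% of all genes (1726 genes). The 14 were Olig1, Olig2, Opalin, Gjc3, Pllp, Tmem88b, Cntn2, Evi2a, Anln, Ndrg1, Aspa, Car2, Qdpr and Apod. Without LM25 and LM28 this held for 24 members, 0 members passed, and the median of the 32 myelin stage genes was 0.49 in place of 0.60. It held for 34 without CTRL male LM18 and for 24 without LM25, and 1 member, Pdgfra, passed without PS male LM27.

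The precursor genes had means on the other side. Pdgfra had 58.6, 64.0, 69.0 and 63.5 CPM in PS males, against 71.5, 78.6, 77.2 and 68.1 CPM in CTRL males, so 3 of 4 PS males lay below all CTRL males and the groups overlapped through LM27. Its log2 fold change was -0.21 ± 0.066 (SE, limma, adjusted p = 0.0793). Cspg4 had 16.2, 17.9, 19.1 and 20.4 CPM in PS males, against 19.1, 21.9, 21.1 and 19.4 CPM in CTRL males, and these groups overlapped (log2 fold change -0.15 ± 0.10, limma, adjusted p = 0.375). The 2 precursor genes had a median of -0.18, and the 32 myelin stage genes one of 0.60 with all 32 above 0.

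The lineage factors did not overlap between the male groups. Olig1 had 33.3, 34.0, 37.2 and 44.2 CPM in PS males, against 25.96, 31.4, 24.9 and 21.6 CPM in CTRL males. Its log2 fold change was 0.51 ± 0.16, a fold of 1.43 (limma, adjusted p = 0.0769). Olig2 had 7.53, 7.54, 7.90 and 10.8 CPM in PS males, against 6.496, 7.33, 6.17 and 5.76 CPM in CTRL males, where LM28 again stood above the other PS males (log2 fold change 0.36 ± 0.14, limma, adjusted p = 0.136).

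**Figure D2:**
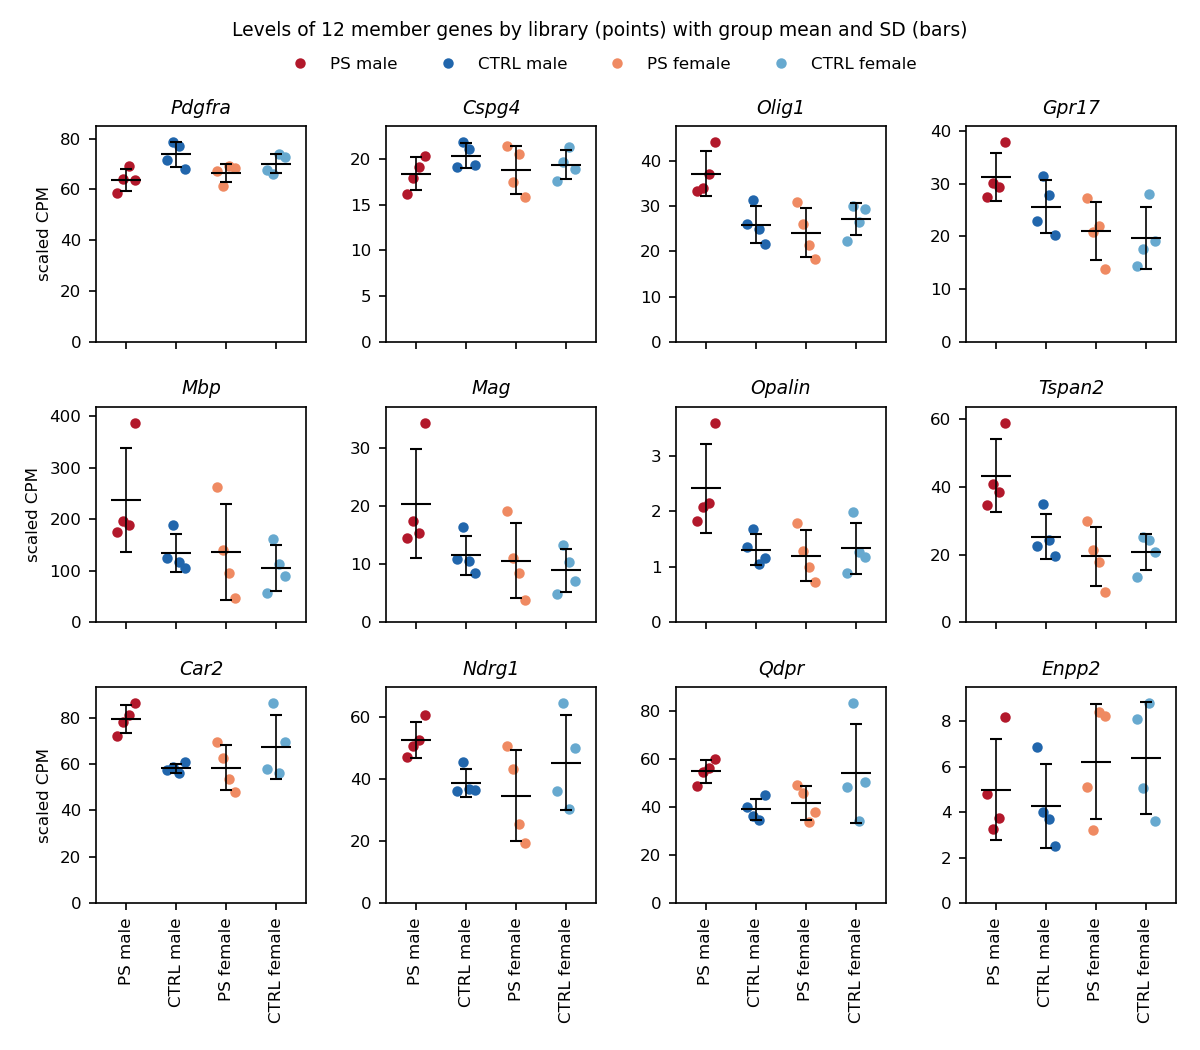
Scaled CPM of 12 of the 39 genes in every library (points) with the group mean and SD (bars), 1 panel per gene. Olig1 and Car2 show 4 PS male points above all 4 CTRL male points, Mbp shows LM28 alone at 387 CPM, and Pdgfra shows groups that lie close together.

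Genes of newly formed oligodendrocytes overlapped between the male groups. Gpr17, a receptor of premyelinating cells, had 27.5, 30.2, 29.3 and 37.9 CPM in PS males, against 22.9, 31.5, 27.8 and 20.2 CPM in CTRL males (log2 fold change 0.29 ± 0.22, limma, adjusted p = 0.431). Enpp6 had 1.53, 1.91, 1.60 and 3.57 CPM in PS males, against 1.11, 1.89, 1.30 and 0.917 CPM in CTRL males. Bcas1, a marker of early myelinating cells, had 12.3, 15.5, 14.4 and 25.3 CPM in PS males, against 10.5, 12.5, 9.31 and 10.2 CPM in CTRL males. For both, LM28 was the highest and the other PS males lay close to the highest CTRL male, with log2 fold changes of 0.52 ± 0.33 (Enpp6) and 0.59 ± 0.34 (Bcas1) and adjusted p of 0.334 and 0.281 in limma.

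The 20 genes of myelin structure had the largest median of the roles, 0.68 (range 0.33 to 0.83), with 7 of 20 not overlapping. Cldn11, which builds the tight junctions of the sheath, had the highest log2 fold change (0.83 ± 0.41), followed by Mobp (0.81), Mal (0.80), a proteolipid of membrane rafts, Mog (0.78), Mbp (0.77 ± 0.46) and Tspan2 (0.77 ± 0.32), a tetraspanin. Their adjusted p in limma lay between 0.152 and 0.30. Mag had 14.6, 17.4, 15.4 and 34.4 CPM in PS males, against 10.9, 16.3, 10.5 and 8.48 CPM in CTRL males, again with LM28 set apart and the groups overlapping through CTRL male LM18 (log2 fold change 0.75 ± 0.43, limma, adjusted p = 0.284). Opalin came closest to passing among the structural genes. It had 1.82, 2.08, 2.15 and 3.596 CPM in PS males, against 1.35, 1.68, 1.06 and 1.15 CPM in CTRL males, with no overlap and a fold of 1.58 (limma, adjusted p = 0.103). Tspan2 had 34.6, 40.9, 38.5 and 58.9 CPM in PS males, against 22.5, 34.8, 24.3 and 19.5 CPM in CTRL males, and overlapped only through CTRL male LM18, which lay just above PS male LM25.

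The remaining structural genes lay between 0.33 and 0.74 on the log2 scale and did not pass. Their log2 fold changes were those of Anln (0.74), a scaffold of the myelin cytoskeleton, Cnp (0.71), Ermn (0.69), Gjc3 (0.63), Pllp (0.61), Plekhh1 (0.61), Tmem88b (0.59), Evi2a (0.52), Cntn2 (0.42), Gjb1 (0.39), Hapln2 (0.35) and Ppp1r14a (0.33). Gjb1 and Gjc3 encode connexins of oligodendrocyte gap junctions, Cntn2 an adhesion molecule beside the node of Ranvier, and Hapln2 a link protein of the nodal matrix.

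The 4 regulators and receptors had a median of 0.57. Lpar1, a receptor for lysophosphatidic acid, had 5.95, 6.85, 6.64 and 10.4 CPM in PS males, against 4.53, 6.08, 4.56 and 3.81 CPM in CTRL males (log2 fold change 0.59 ± 0.30, limma, adjusted p = 0.235). Ndrg1, mutated in a human demyelinating neuropathy, had 46.9, 50.5, 52.5 and 60.6 CPM in PS males, against 36.0, 45.4, 36.8 and 36.4 CPM in CTRL males. All PS males lay above CTRL male LM18, the highest control, and the log2 fold change was 0.44 ± 0.28 (limma, adjusted p = 0.327). Gpr37, a receptor of oligodendrocytes, and Myrf, the transcription factor that drives myelin genes, had log2 fold changes of 0.58 and 0.56.

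The 8 genes of lipid handling, metabolism or secretion had a median of 0.48. Car2 had 71.9, 78.1, 81.2 and 86.3 CPM in PS males, against 57.5, 58.6, 56.0 and 60.7 CPM in CTRL males, a clear gap with narrow groups (log2 fold change 0.44 ± 0.13, a fold of 1.36, limma, adjusted p = 0.0725). Qdpr had 48.5, 54.3, 56.1 and 60.0 CPM in PS males, against 40.0, 36.3, 34.7 and 44.7 CPM in CTRL males, also without overlap (log2 fold change 0.49 ± 0.21, limma, adjusted p = 0.156). Ugt8a and Fa2h, the enzymes that add galactose to ceramide and hydroxylate its fatty acid, had 0.64 and 0.53, Aspa, which splits N-acetylaspartate, 0.60, and Trf and Apod, carriers of iron and lipid, 0.48 and 0.46. Enpp2, autotaxin, which makes lysophosphatidic acid, had the smallest value of the myelin stage (0.20 ± 0.37, limma, adjusted p = 0.769).

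PS females were compared with CTRL females in the same way, and no member stood out. Of 38 members tested 0 passed (limma, smallest adjusted p = 0.538), 0 had an unadjusted p under 0.05, against 12.7% of all genes tested, and 0 of 14236 genes passed (0%). Ppp1r14a lay under the expression filter in both female groups. The median over members was -0.06 (range -0.45 for Anln to 0.23 for Hapln2), against -0.0012 over all genes tested, and 14 of 38 were above 0. No member was without overlap, against 3.48% of all genes on the higher side (495 genes) and 4.07% on the lower side (579 genes).

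The female groups were wide and lay across each other. Pdgfra had 67.1, 61.1, 69.1 and 68.3 CPM in PS females, against 67.8, 66.0, 73.8 and 72.6 CPM in CTRL females. Olig1 had 30.8, 26.02, 21.4 and 18.4 CPM in PS females, against 22.4, 30.05, 26.6 and 29.4 CPM in CTRL females, and Car2 had 69.7, 62.6, 53.7 and 48.0 CPM in PS females, against 57.7, 86.3, 56.3 and 69.3 CPM in CTRL females. The groups overlapped in each of these genes, with log2 fold changes of -0.08 (Pdgfra), -0.18 (Olig1), -0.20 ± 0.13 (Car2) and 0.20 ± 0.46 (Mbp, limma, adjusted p = 0.885). Ndrg1 had 50.5, 43.0, 25.3 and 19.4 CPM in PS females, against 36.1, 64.3, 30.4 and 49.98 CPM in CTRL females, where PS females LM31 and LM32 were the lowest (log2 fold change -0.42 ± 0.28, limma, adjusted p = 0.538).

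**Figure D3:**
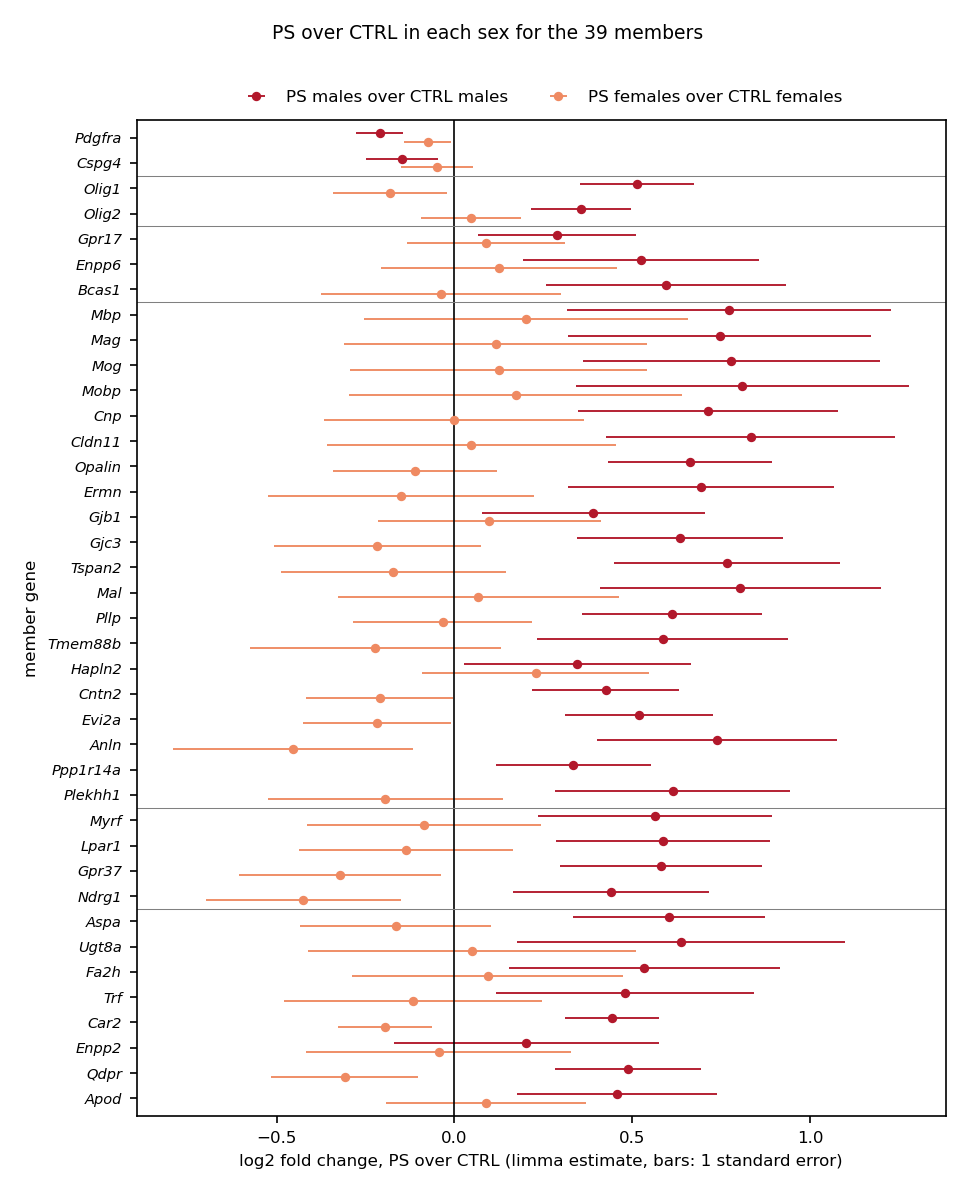
Log2 fold change of PS over CTRL for each of the 39 genes (points) with 1 SE on either side (bars), in males (dark red) and females (orange), genes in rows by stage and role. The male values lie right of 0 for 37 of 39 genes and the female values lie on both sides of 0 for the 38 genes tested, and 0 of these genes passed in either sex.

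CTRL females were set against CTRL males as the sex comparison without stress. Of 38 members tested 0 passed (limma, smallest adjusted p = 0.868) and 0 had an unadjusted p under 0.05, against 5.54% of all genes tested, while 10 of 14244 genes passed (0.0702%). The median over members was -0.07, against -0.0018 over all genes tested, and the range ran between -0.58 (Ugt8a) and 0.53 (Enpp2). No member was without overlap, against 2.49% of all genes on the higher side (355 genes) and 2.11% on the lower side (301 genes). Mbp averaged 105 ± 44.0 CPM in CTRL females, against 134 ± 36.6 CPM in CTRL males (SD, n = 4 each), and Olig1 averaged 27.1 ± 3.49 CPM in the females, set against 25.95 ± 4.08 CPM in the males.

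PS females and PS males differed more, and 4 members passed, all lower in PS females. They were Olig1, Opalin, Tspan2 and Car2 (4 of 39), while 1877 of 14316 genes passed (13.1%), so the share of members that passed was no higher than that of all genes. An unadjusted p under 0.05 was found for 27 of 39 members (69.2%), against 32.3% of all genes tested. The median over members was -0.73 (range -1.24 for Cldn11 to 0.28 for Enpp2), against -0.0018 over all genes tested, and the 3 members above 0 were Pdgfra, Cspg4 and Enpp2. For 8 of the 39 members every PS female lay below every PS male, namely Olig1, Gpr17, Cldn11, Opalin, Tspan2, Anln, Lpar1 and Car2. This was a larger share than the 10.2% of all genes (1454 genes), among members that vary together. For 0 members every PS female lay above, against 11.9% of all genes (1699 genes).

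Tspan2 fell to 29.8, 21.2, 17.9 and 8.89 CPM in PS females, against 34.6, 40.9, 38.5 and 58.9 CPM in PS males. Its log2 fold change was -1.22 ± 0.32, a fold of 0.429 (limma, adjusted p = 0.0267). Olig1 averaged 24.2 ± 5.45 CPM in PS females and 37.2 ± 4.98 CPM in PS males (SD, n = 4 each), with all PS females below all PS males (log2 fold change -0.63 ± 0.16, a fold of 0.647, limma, adjusted p = 0.0248). Opalin had 1.79, 1.29, 1.00 and 0.722 CPM in PS females, against 1.82, 2.08, 2.15 and 3.596 CPM in PS males, so LM29 and LM25 nearly met (log2 fold change -0.78 ± 0.23, a fold of 0.584, limma, adjusted p = 0.0426). Car2 averaged 58.5 ± 9.56 CPM in PS females and 79.4 ± 6.02 CPM in PS males (log2 fold change -0.45 ± 0.13, a fold of 0.733, limma, adjusted p = 0.0413).

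The number of calls varied with the libraries that were used. In each such fit the removed directions were searched for again in the libraries left, so the covariates could change as well. With all libraries and the removed directions left out of the model, 14 members passed. Without LM25 and LM28, 0 members passed, with 2 PS males left and log2 fold changes close to those above, which were -0.58 for Olig1 (limma, adjusted p = 0.0507), -1.14 for Tspan2 (0.0565), -0.47 for Car2 (0.0647) and -0.67 for Opalin (0.0819). Without PS female LM29 alone, 27 members passed and 32 were without overlap, without LM30 10 passed, without LM28 or LM31 2 passed, and without LM32 1 passed. Without LM25, 15 were without overlap. PS female LM29 was the highest and LM32 the lowest of its group for most of the myelin stage, which shows in the summed level of the 32 genes, between 264 CPM in LM32 and 786 CPM in LM29.

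Several other structural genes had differences near that of Tspan2 but larger SEs, and they did not pass. Cldn11 (-1.24 ± 0.41), Mal (-1.20), Mog (-1.12), Cnp (-1.11), Mobp (-1.09), Anln (-1.08), Mag (-1.03) and Mbp (-0.98 ± 0.46) had adjusted p in limma between 0.0503 and 0.156. Mbp averaged 136 ± 92.6 CPM in PS females and 237 ± 100.7 CPM in PS males, and Mag averaged 10.6 ± 6.44 CPM in PS females, against 20.4 ± 9.37 CPM in PS males, with SDs as wide as much of the difference. Among receptors, Lpar1 had 5.79, 4.16, 3.53 and 1.65 CPM in PS females, against 5.95, 6.85, 6.64 and 10.4 CPM in PS males (log2 fold change -0.96 ± 0.30, limma, adjusted p = 0.0502). Gpr17 had 27.3, 20.9, 21.97 and 13.8 CPM in PS females, against 27.5, 30.2, 29.3 and 37.9 CPM in PS males, and LM29 lay just under the lowest PS male (log2 fold change -0.59 ± 0.22, limma, adjusted p = 0.0871). Pdgfra averaged 66.4 ± 3.63 CPM in PS females and 63.8 ± 4.25 CPM in PS males (limma, adjusted p = 0.563).

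The difference of the PS effects, the male one minus the female one, tests whether the sexes differed in their response. Of the 39 members 0 passed (limma, smallest adjusted p = 0.0660, for Car2), 9 (23.1%) had an unadjusted p under 0.05, against 24.6% of all genes tested, and 591 of 14392 genes passed (4.11%). The median over members was 0.65, with 37 of 39 above 0, against a median of 0.0082 and 51.4% above 0 over all genes tested. The values with the smallest adjusted p were 0.64 ± 0.19 for Car2 and 0.69 ± 0.23 for Olig1 (adjusted p = 0.0866 in limma), and the largest was 1.19 ± 0.48 for Anln (adjusted p = 0.146 in limma). Mbp (0.57), Opalin (0.77), Tspan2 (0.94) and Qdpr (0.80) had adjusted p between 0.115 and 0.612 in limma, and Pdgfra had -0.13. The 4 comparisons and this contrast share libraries, so they are not separate lines of evidence. Without CTRL female LM21 or LM23 2 members passed, without PS female LM29 3, and without LM30 1.

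Other genes of the lineage, outside the 39, were counted from lists by stage. In PS males against CTRL males 3.44% of all genes tested passed in limma, and 25.7% had an unadjusted p under 0.05. Of 22 further genes of mature oligodendrocytes, 18 were tested in PS males against CTRL males, all 18 had a positive log2 fold change with a median of 0.44, and 0 passed (limma, 2 with an unadjusted p under 0.05). Of 10 further genes of newly formed oligodendrocytes 10 were positive (median 0.42) and 0 passed (limma, 5 with an unadjusted p under 0.05). Of 12 further precursor genes 7 were positive, with a median of 0.11, and 1 passed. That gene, Xylt1, a xylosyltransferase that starts proteoglycan chains, fell in PS males (log2 fold change -0.36 ± 0.082, limma, adjusted p = 0.0437).

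Between PS females and PS males 13.1% of all genes tested passed. Of the 10 further genes of newly formed oligodendrocytes 3 passed, all lower in PS females. They were Tcf7l2, a transcription factor of premyelinating cells and of thalamic neurons (-1.39 ± 0.43), the noncoding 9630013A20Rik (-1.17 ± 0.29) and Zfp488 (-0.61 ± 0.19), a zinc finger factor of the lineage. Without LM25 and LM28 none of these passed, Tcf7l2 with -0.56 (limma, adjusted p = 0.2996), 9630013A20Rik with an adjusted p of 0.0518 and Zfp488 with 0.124. Of the 18 further mature genes tested 1 passed, Hhip, which binds hedgehog ligands (-0.84 ± 0.22), and all 18 were below 0, with a median of -0.53, and without LM25 and LM28 Hhip did not pass (limma, adjusted p = 0.0619). Of the 12 further precursor genes Vcan, a matrix proteoglycan, fell (-0.41 ± 0.11) and Xylt1 rose (0.34 ± 0.082).

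Among 18 regulators of oligodendrocyte differentiation, 5 passed (27.8%) between PS females and PS males, in both directions. Over all genes tested in this comparison 13.1% passed in limma, and 32.3% had an unadjusted p under 0.05. Hes5 (0.76 ± 0.19), a target of Notch, Lingo1 (0.53 ± 0.14), a neuronal brake on myelination, and Nrg1 (0.36 ± 0.11), an axonal growth factor, rose in PS females, and St18 (-1.04 ± 0.26) and Zeb2 (-0.44 ± 0.12), transcription factors, fell. Without LM25 and LM28 Hes5 had 0.45 and did not pass (limma, adjusted p = 0.116). Of 12 genes of galactolipid synthesis and turnover, Degs1 (-0.29 ± 0.072), which forms ceramide, and Asah1 (-0.18 ± 0.056), an acid ceramidase, fell and Arsa (0.26 ± 0.056), the lysosomal sulfatase of sulfatide, rose. Of 10 genes of the node and paranode on the axon 0 passed (limma, 3 with an unadjusted p under 0.05). In PS males against CTRL males 0 genes of these last 3 lists passed (limma, with 6, 5 and 1 genes at an unadjusted p under 0.05, against 25.7% of all genes tested), and their medians were 0.05, 0.13 and 0.01.

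Markers of other cells were counted beside these results, and their part in the differences was not tested. The 8 hippocampal markers summed to 757 to 2499 CPM in PS males, 570 to 1054 CPM in CTRL males, 279 to 1354 CPM in PS females and 1103 to 1613 CPM in CTRL females, and their highest and lowest libraries, LM28 and LM32, were also those of the myelin stage. The 9 markers of the central amygdala and intercalated cells summed to 26.6 to 46.0 CPM in PS males, against 42.3 to 67.8 CPM in CTRL males, and 39.1 to 55.0 CPM in PS females, against 42.9 to 55.8 CPM in CTRL females. Of these, Tshz1 fell in PS males (log2 fold change -0.62 ± 0.15, limma, adjusted p = 0.0470). The 12 microglia markers summed to 201 to 247 CPM in PS males, against 254 to 285 CPM in CTRL males, and 244 to 263 CPM in PS females, against 253 to 261 CPM in CTRL females. All 12 had a log2 fold change below 0 in PS males against CTRL males, and Cx3cr1, the fractalkine receptor (-0.39 ± 0.091), and Itgam, an integrin of myeloid cells (-0.43 ± 0.096), fell (adjusted p = 0.0437 and 0.0432 in limma). Without LM25 and LM28, with 2 PS males left, neither passed, with log2 fold changes of -0.33 for Cx3cr1 and -0.45 for Itgam (adjusted p = 0.113 and 0.0892 in limma), nor did Xylt1 (-0.34, adjusted p = 0.121 in limma) or Tshz1 (-0.41, adjusted p = 0.176 in limma). Between PS females and PS males, where 13.1% of all genes tested passed, Cx3cr1 (0.30 ± 0.091) and Itgam (0.37 ± 0.096) rose in PS females. Of 9 astrocyte markers 2 fell, the connexins Gja1 (-0.38 ± 0.096) and Gjb6 (-0.55 ± 0.13), and 3 of 10 neuronal markers rose (Rbfox3, Stmn2 and Thy1). Without LM25 and LM28, Cx3cr1 (0.24, adjusted p = 0.0734 in limma) and Gja1 (-0.35, adjusted p = 0.0617 in limma) did not pass. Itgam (0.39, adjusted p = 0.0176 in limma) and Gjb6 (-0.53, adjusted p = 0.0455 in limma) still passed.

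The 8 markers of thalamus and habenula summed to 13.2 to 19.1 CPM in PS males, against 9.07 to 12.6 CPM in CTRL males, without overlap, and to 7.40 to 16.8 CPM in PS females, against 11.0 to 15.4 CPM in CTRL females. All 5 that were tested between the male groups had a log2 fold change above 0, with a median of 0.51. Of these 0 passed (limma, 4 with an unadjusted p under 0.05, against 25.7% of all genes tested). Of 13 vessel wall markers 1 passed between the male groups, against 3.44% of all genes tested. This was Lum, a collagen-binding proteoglycan, which rose in PS males (log2 fold change 0.74 ± 0.18, limma, adjusted p = 0.0441). It had 0.55 and did not pass without LM25 and LM28 (limma, adjusted p = 0.167). The part of these markers in the myelin values was likewise not tested.

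**Figure D4:**
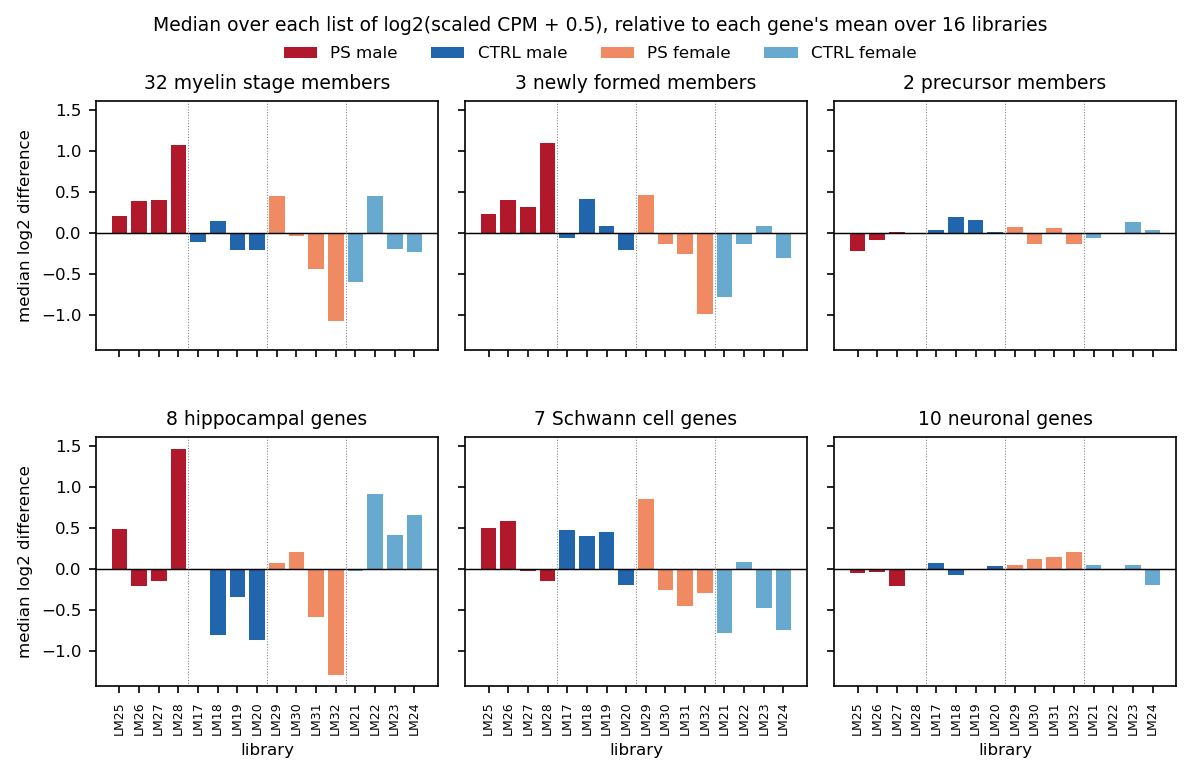
Median log2 level of 6 gene lists relative to each gene's mean over 16 libraries (bars, 1 per library, colored by group), 1 panel per list. The 32 myelin stage genes and the 8 hippocampal genes are highest in LM28 and lowest in LM32, while the 2 precursor genes stay between -0.23 and 0.19. Other libraries match only in part. CTRL female LM22 had 0.92 for the hippocampal and 0.44 for the myelin stage genes, and PS female LM31 -0.58 and -0.45. CTRL male LM18 had -0.80 and 0.14.

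Schwann cells, which make peripheral myelin, also express Mbp and Mag, so a list of 7 of their markers was measured, of which 5 were tested between the male groups and 0 passed (limma, 1 with an unadjusted p under 0.05). Their median log2 level, relative to each gene's mean over 16 libraries, was 0.50, 0.58, -0.024 and -0.15 in PS males, against 0.47, 0.40, 0.45 and -0.20 in CTRL males, so it was lowest among PS males in LM28, the library with the most Mbp. In PS females it was 0.85, -0.27, -0.46 and -0.30, against -0.78, 0.077, -0.48 and -0.74 in CTRL females, and there LM29 and LM22 led both this list and the myelin stage.

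Enpp2 was the myelin stage gene that did not follow the others of its stage, and the choroid plexus also expresses it. It had 4.79, 3.28, 3.72 and 8.20 CPM in PS males, against 6.87, 4.0, 3.70 and 2.51 CPM in CTRL males, and 5.10, 3.20, 8.41 and 8.22 CPM in PS females, against 8.09, 5.06, 8.80 and 3.59 CPM in CTRL females. Kl, the klotho gene and 1 of 10 choroid plexus markers, had 0.590, 0.622, 0.788 and 1.15 CPM in PS males, against 1.07, 0.671, 0.840 and 0.564 CPM in CTRL males, and 0.691, 0.612, 1.55 and 1.70 CPM in PS females, against 1.38, 1.11, 1.53 and 0.968 CPM in CTRL females. PS male LM28, PS females LM31 and LM32 and CTRL females LM21 and LM23 had the 5 highest values of both genes, a match that was looked for after the values were seen. Kcnj13, another of the 10 markers, was near the floor and had 0 CPM in every PS male, LM28 among them. Its highest values were 0.070 CPM in LM32, 0.048 CPM in LM31 and LM23 and 0.047 CPM in LM21. The defining choroid plexus markers Ttr and Folr1 were listed at 0 in all 16 libraries, as were 7 of the 10 markers.

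The myelin stage genes differed in how they stood in PS male LM28 and CTRL female LM22, which led most of these genes in their groups. LM22 had the highest value of all 16 libraries for Ndrg1 (64.3 CPM), Qdpr (83.1 CPM) and Apod. The quotient of LM28 over LM22 was 0.72 for Qdpr, 0.94 for Ndrg1, 0.99 for Apod and 1.00 for Car2. Over the structural genes it was spread between 1.00 for Hapln2 and 2.92 for Mog, with values such as 1.14 for Cntn2, 1.17 for Anln, 1.57 for Ermn, 1.81 for Opalin and 2.40 for Mbp between them. The highest quotient of the 32 genes was that of the lipid enzyme Ugt8a (2.98).

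Exons of 6 members overlap a gene on the opposite strand, and the strand setting of the counting is not given in the sources used here. The overlaps were 188 bases for Gpr17 with Lims2, 34 for Bcas1 with Bcas1os2, 154 for Cnp with Dnajc7, 237 for Ermn with Galnt5, 88 for Tspan2 with Tspan2os and 992 for Plekhh1 with Pigh, and reads there cannot be assigned with certainty. In GENCODE M21 coordinates of GRCm38, Tspan2 (ENSMUSG00000027858.13) lies at chr3:102734529-102801513, Car2 (ENSMUSG00000027562.12) at chr3:14886273-14900770, Olig1 (ENSMUSG00000046160.6) at chr16:91269772-91271933 and Opalin (ENSMUSG00000050121.9) at chr19:41061710-41077113. These 4 genes, which passed between PS females and PS males, were counted over their exons, and of them only Tspan2 has such an overlap.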

How the data were processed

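RNA-seq libraries of 16 PN28 amygdala dissections were analysed. Per the labels and methods, the authors aligned reads to mm10 with STAR, counted them with featureCounts, used RUVs against unwanted variation, and edgeR for their tests (versions and strand setting not given in the sources used here). The deposited table holds for each library a corrected value, treated here as a score because it is not a raw count, and a CPM that the authors computed from it. It also holds 12 columns of the authors' own comparisons (log2 fold changes, p-values and FDR), which were not used. The totals of 39989993 to 44275406 are corrected sums, so precision is that of 4 libraries per group and no counting interval is given.

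CPM was scaled with TMM factors, 0.5 was added, and log2 values were fitted in limma 3.58.1 (R 4.3.3) with 1 mean per group and the 2 removed directions, found as the empty within-group directions of the deposited values, kept as covariates (10 residual degrees of freedom). Genes with a mean CPM above 0.5 in a compared group were tested, with Benjamini-Hochberg adjustment over all of them. The fit was tested on simulated data. Only labels of separate mice from different litters define replicates, and whether males and females share litters is not stated, so the sex comparisons treat them as independent. The members and the other gene lists were chosen with earlier results of these data known. Named with values by library were, per role, the most abundant member, the member with the smallest p over the comparisons and each member that passed. Besides these there were Cspg4, Olig2, Enpp6, Bcas1, Mag, Qdpr and Enpp2, which were chosen after their values were seen. In the text, Cspg4, Olig2, Enpp6, Bcas1, Mag and Qdpr are given by library for males only. Gpr17, Opalin, Tspan2 and Lpar1 are given by library without CTRL females. Counts of groups without overlap and the removal of LM25 and LM28 were chosen after seeing the data. Alternatives were CPM as deposited, other pseudocounts and filters, a model without the removed directions, only the compared groups, and leaving out each library. Fits with fewer libraries searched for the removed directions again, so their covariates can differ from those of the main fit.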

Additional observations from a re-analysis of the deposited data

Results flagged for a closer look

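Over the 16 members named with values by library, 64 sets of 4 libraries were looked at for a library far from the other 3. The measure was the gap to its neighbour over the range. Of these 4 sets held one, which is near the 1 in 20 that chance gives. The genes vary together, so the sets are not independent, and Mag and Olig2 were chosen after their values were seen. PS male LM28 lay above the other PS males for Mbp (387 CPM), Mag (34.4 CPM) and Olig2 (10.8 CPM), with gaps of 0.901, 0.860 and 0.885 of the range. CTRL male LM18 lay above the other CTRL males for Ndrg1 (45.4 CPM, gap 0.909 of the range).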

How the results depend on the processing

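No paired analysis was made, because the labels give a number for each library but no litter. Whether males and females could be paired by litter is therefore not known. The causes of the changes below were not tested. In PS males against CTRL males, 0 members passed, 3 with the removed directions left out of the model and 14 with only the compared groups fitted. Leaving out 1 library gave 0 to 1, and counts without overlap of 14 to 34 on the higher side (34 without LM18, 24 without LM25, 24 without LM25 and LM28) and 0 to 1 on the lower side. Between CTRL females and CTRL males, counts without overlap were 0 to 1 on each side when 1 library was left out.

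Between PS females and PS males, 4 members passed, 11 with CPM as deposited, 2 with no filter on low values, 14 with the removed directions left out of the model, 0 without LM25 and LM28, and 1 to 27 with 1 library left out. The count without overlap on the lower side was 15 without LM25 and LM28 and 8 to 32 with 1 library left out. For the difference of the PS effects, 2 passed with the removed directions left out of the model and 0 to 3 with 1 library left out.

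Some values close to 0 changed sign. Without LM25 and LM28, Enpp2 had -0.18 in PS males against CTRL males and Pdgfra -0.011 between PS females and PS males. With CPM as deposited, Pdgfra had -0.011 and Cspg4 -0.041 between PS females and PS males. With 1 library left out, Enpp2 in PS males against CTRL males lay between -0.045 and 0.44, Mbp in PS females against CTRL females between -0.20 and 0.63, Olig1 between CTRL females and CTRL males at -0.017 to 0.16, and, between PS females and PS males, Cspg4 at -0.039 to 0.11 and Hapln2 at -0.44 to 0.0059. The median of the 32 myelin stage genes stayed on the same side of 0 in both comparisons that involve PS males (0.43 to 0.70 against CTRL males, -1.03 to -0.52 for PS females minus PS males). In PS females against CTRL females it ran between -0.32 and 0.17 with 1 library left out. Corrected values keep no read depth, so counting error could not be separated from the spread between 4 libraries.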
